A study of Mus musculus with 7 samples.

Results

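Imprinted genes were followed by RNA sequencing in mini-oocytes, which are oocyte-like cells made from mouse embryonic stem cells (mESCs) by forced expression of transcription factors. The set held 49 genes, chosen by symbol as known imprinted genes of the mouse, of the 55364 genes listed. By the parental copy that is read where a gene is imprinted, 25 of them were classed as paternally expressed and 21 as maternally expressed. The other 3 (Gnas, Grb10 and Ddc) were classed as dependent on isoform or tissue. Imprinting of genes in the first classes can also be limited to some tissues or isoforms. The class names therefore do not say that a single copy was read in these cells. Values are in TPM, a unit that divides the reads of a gene by the length of its exons and gives each library an equal total, so that levels of different genes can be compared. Of the 49 genes, 37 reached 1 TPM in at least 2 of the 7 libraries and were tested, beside 21780 genes in all.

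All cells descended from BVSC H18, a female mESC line of hybrid 129/C57BL6 background. In 4F cells the forced factors were Nobox, Figla, Tbpl2 and Lhx8, and 8F cells carried Stat3, Dynll1, Sub1 and Sohlh1 in addition. These were separate mESC lines, and the paper names an Npm2-mCherry reporter in the 8F line. The factors were held stable by Shield-1, a small molecule that was left out of fresh medium from day 12, and every culture stood on laminin in S10 medium with SCF and Y-27632. Libraries came from 4F-mini-oocytes at day 7 (n = 2, pools of 1000 cells), 4F-mini-oocytes at day 21 (n = 3, pools of 10 cells) and 8F-mini-oocytes at day 21 (n = 2, pools of 10 cells). Day and pool size therefore cannot be told apart, 8F cells were not measured at day 7, and nothing in the labels says whether replicates are separate inductions, so p-values measure only the spread between these libraries. Depth was between 9506135 and 18027834 reads on genes. In such pools, fewer cells that express a gene and less RNA per cell cannot be told apart.

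Imprinted genes are expressed mainly from the maternal or mainly from the paternal chromosome, according to DNA methylation or histone marks that were set in the egg or the sperm. These marks are erased in primordial germ cells and set again later, for most maternal marks during oocyte growth, when the methyltransferase Dnmt3a acts with its cofactor Dnmt3l. Many imprinted genes act in the placenta and in fetal growth, and neighbours often share 1 control region. TPM adds the reads of both chromosomes and of all promoters of a gene, so neither the allele that was read nor the state of an imprint was measured here.

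Of the 49 genes, 39 had a promoter entry in RefSeq (GRCm38.p6), and the 250 bases before each annotated start were read for them. Bases from the start onward were not read, so a low CpG count in a window does not make the start CpG-poor. The windows printed here are of genes whose RNA differed between the days. They are shown because their CpG counts run from low to high and because Igf2r and Airn are an overlapping pair read in opposite directions. Each runs 5′ to 3′ on the strand of the gene, and capitals mark CpG dinucleotides, the bases at which mammalian DNA is methylated. The Mest window lies at chr6:30737800-30738049 on the plus strand with 14 CpG, the Grb10 window at chr11:12037421-12037670 on the minus strand with 40, the H13 window at chr2:152669211-152669460 on the plus strand with 18, the Igf2r window at chr17:12769707-12769956 on the minus strand with 27 and the Airn window at chr17:12741061-12741310 on the plus strand with 2. Mest and Grb10 have further annotated starts, not printed, whose windows hold 7 and 14 CpG for Mest and 8 for Grb10.
Mest: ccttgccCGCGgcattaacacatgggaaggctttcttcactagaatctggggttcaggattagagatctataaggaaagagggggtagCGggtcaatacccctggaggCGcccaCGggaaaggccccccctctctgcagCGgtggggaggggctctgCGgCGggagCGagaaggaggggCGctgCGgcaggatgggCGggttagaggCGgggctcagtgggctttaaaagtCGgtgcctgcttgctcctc
Grb10: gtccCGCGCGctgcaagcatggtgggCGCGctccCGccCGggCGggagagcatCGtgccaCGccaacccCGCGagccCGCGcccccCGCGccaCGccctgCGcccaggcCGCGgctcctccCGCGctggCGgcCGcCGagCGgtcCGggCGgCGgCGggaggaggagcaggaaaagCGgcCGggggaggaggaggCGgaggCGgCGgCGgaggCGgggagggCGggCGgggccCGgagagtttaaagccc
H13: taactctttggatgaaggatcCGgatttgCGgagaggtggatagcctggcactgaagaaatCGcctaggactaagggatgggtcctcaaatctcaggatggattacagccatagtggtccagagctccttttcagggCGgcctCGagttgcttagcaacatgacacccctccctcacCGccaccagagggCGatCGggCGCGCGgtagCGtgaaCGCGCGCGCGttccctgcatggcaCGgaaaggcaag
Igf2r: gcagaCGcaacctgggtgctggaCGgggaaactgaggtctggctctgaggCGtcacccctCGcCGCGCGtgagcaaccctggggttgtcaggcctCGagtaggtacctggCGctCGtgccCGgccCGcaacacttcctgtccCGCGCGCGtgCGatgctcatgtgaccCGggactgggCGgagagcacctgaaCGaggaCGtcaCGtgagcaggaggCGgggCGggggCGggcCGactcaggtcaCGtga
Airn: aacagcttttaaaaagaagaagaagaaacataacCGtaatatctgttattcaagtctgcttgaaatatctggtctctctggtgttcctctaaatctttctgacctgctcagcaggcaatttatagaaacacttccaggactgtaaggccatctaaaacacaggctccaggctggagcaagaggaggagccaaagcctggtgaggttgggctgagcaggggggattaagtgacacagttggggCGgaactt

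Over the 62 windows of the 39 genes the median was 10 CpG, and over all 32851 windows of the same length it was 6. The letters TGCCGC, which make up the methylated motif bound by the imprint guard Zfp57, were searched on both strands without allowing a mismatch. They were found in 9 of the 62 windows (14.5%) and in 8.68% of all windows. The Mest window shown above holds them at 2 positions, and an overlapping Mest window that starts at 30737803 is counted beside it among the 9. The other 4 windows shown hold none, which says only that these letters are not in those 250 bases.

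Summed over the 49 genes, the level was 3377 ± 426 TPM at day 7 (SD, n = 2), 1106 ± 57.0 TPM in 4F-mini-oocytes at day 21 (n = 3) and 973 ± 13.3 TPM in 8F-mini-oocytes at day 21 (n = 2). Paternally expressed genes summed to 1226 ± 230 TPM at day 7, 244 ± 32.1 TPM in 4F cells at day 21 and 178 ± 1.59 TPM in 8F cells. Maternally expressed genes summed to 2070 ± 187 TPM, 701 ± 26.5 TPM and 648 ± 18.4 TPM in the same order. Both day 7 libraries were above all 5 day 21 libraries for the paternally and for the maternally expressed genes.

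A few genes made up most of these sums. H19 and Peg10 together supplied 55.3% and 54.0% of the summed level in the 2 day 7 libraries. At day 21 the leading gene in all 5 libraries was Nap1l4, a histone chaperone, with 221 to 273 TPM. The sum over the 3 genes of the isoform or tissue dependent class went the other way, from 80.9 ± 9.07 TPM at day 7 to 161 ± 6.67 TPM in 4F cells and 147 ± 6.69 TPM in 8F cells. Ddc, a decarboxylase gene beside Grb10, was listed at 0 in every library. The mean of Gnas was 60.6 TPM in 8F cells and 64.0 TPM at day 7, so the higher sum in 8F cells came from Grb10.

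**Figure D1:**
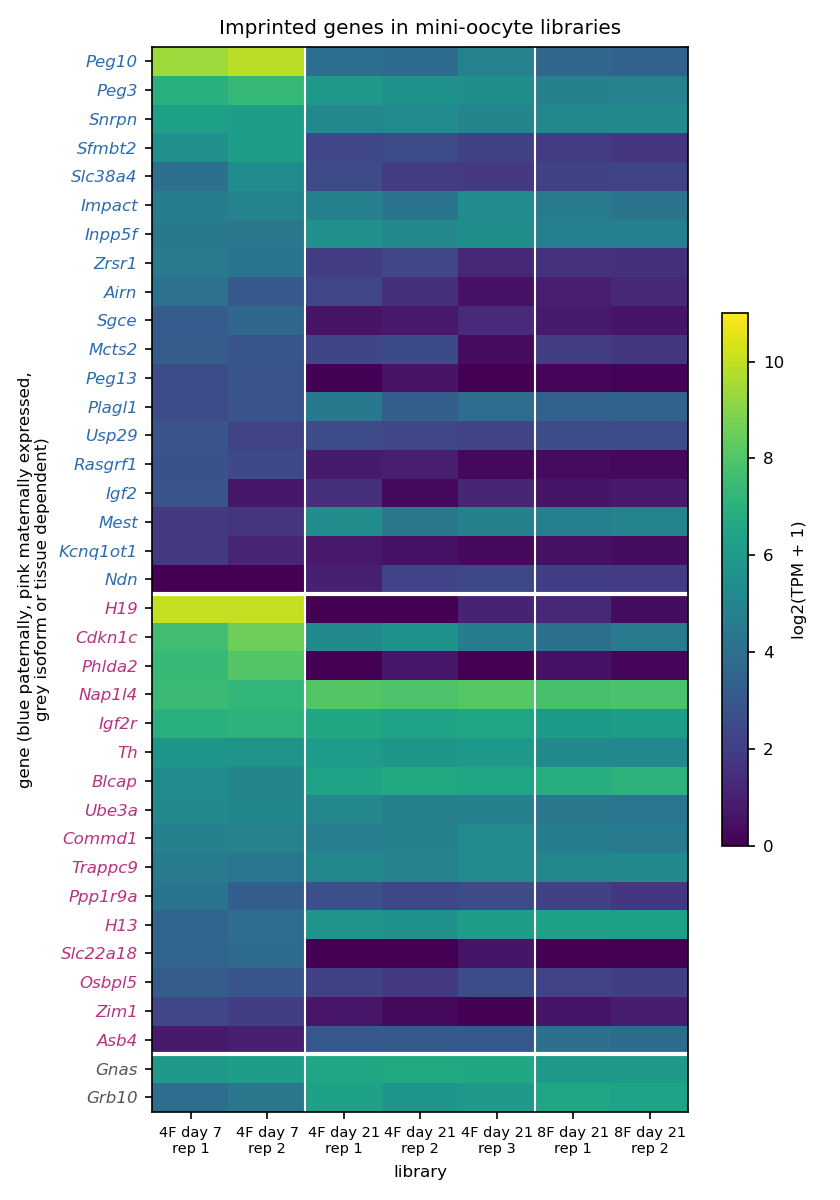
Heat map of the 37 imprinted genes tested (vertical axis, grouped by expressed allele) in the 7 libraries (horizontal axis), coloured by log2(TPM + 1). Peg10, H19, Phlda2 and Cdkn1c are brightest in the day 7 columns, whereas Mest, H13, Blcap, Asb4 and Grb10 are brighter in the day 21 columns.

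To ask how imprinted genes differed between the early and the late cells, 4F-mini-oocytes at day 21 were compared with those at day 7. The test was limma on log2(TPM + 1) over all genes, with Benjamini-Hochberg adjustment and a threshold of 0.05, and adjusted p-values below come from it. Of the 37 imprinted genes tested, 16 fell and 11 rose. Over all genes tested 40.6% passed, 25.3% higher and 15.3% lower. Among the imprinted genes the shares were 73.0% in all, 29.7% higher and 43.2% lower. The groups did not overlap for 20 imprinted genes lower and 11 higher at day 21, beside 56.7% of all genes.

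Of the 16 that fell, 5 (Phlda2, Slc22a18, Zim1, Rasgrf1 and Peg13) reached 1 TPM in day 7 libraries only, so they could enter the test only through the group in which they were high. The other 11 belong to 31 genes tested that had 1 TPM in at least 1 day 21 library. Among these 11, Sgce had 1 TPM in only 1 day 21 library, so it too needed the day 7 libraries to enter. Of the 11 that rose, Asb4 and Ndn reached 1 TPM in day 21 libraries only, so the same limit holds for them. The median difference was -0.90 over the imprinted genes and 0.17 over all genes on the log2 scale. The scale itself moved with the normalization. After median-of-ratios rescaling the median over all genes was -0.06, the share of calls that were higher went from 62.3% to 48.6%, and 20 imprinted genes were lower and 7 higher.

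Of the 19 paternally expressed genes tested, 10 fell, 4 rose and 5 did not pass, with a median difference of -1.38. The genes that fell include Peg10, Sfmbt2 and Slc38a4, all known for roles in the placenta, and Peg3 and Snrpn, which had 26.4 TPM or more in every library. The genes that rose were Mest, Inpp5f, Plagl1 and Ndn.

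Peg10 (chr6:4747306-4760517, mm10), a gene derived from a retrotransposon and required for placenta formation, had 663 and 932 TPM at day 7, 15.0, 13.4 and 28.4 TPM in 4F-mini-oocytes at day 21 and 11.4 and 9.82 TPM in 8F-mini-oocytes at day 21. The lowest day 7 library was far above the highest day 21 library. The log2 fold change was -5.38 ± 0.33 (SE, adjusted p = 9.79e-05). Its divergently transcribed neighbour Sgce, which encodes epsilon-sarcoglycan, had 8.16 and 12.1 TPM at day 7, 0.503, 0.672 and 1.52 TPM in 4F-mini-oocytes at day 21 and 0.712 and 0.534 TPM in 8F-mini-oocytes at day 21, again without overlap between the days, and fell by 2.56 on the log2 scale (adjusted p = 0.0034). Sgce could not have entered the test without the day 7 libraries, in which it was high.

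Sfmbt2 and Slc38a4 are genes whose imprint rests on histone methylation from the oocyte and is kept in extraembryonic tissue. Sfmbt2, a Polycomb group gene, had 45.5 and 70.3 TPM at day 7, 4.05, 4.72 and 3.53 TPM in 4F-mini-oocytes at day 21 and 2.73 and 2.13 TPM in 8F-mini-oocytes at day 21. The lowest day 7 value was 45.5 TPM and the highest day 21 value 4.72 TPM, and the log2 fold change was -3.51 ± 0.32 (adjusted p = 0.000349). Slc38a4, an amino acid transporter, had 15.8 and 39.7 TPM at day 7, 4.91, 2.76 and 2.52 TPM in 4F-mini-oocytes at day 21 and 3.50 and 3.82 TPM in 8F-mini-oocytes at day 21. The 2 day 7 libraries differed widely from each other but both lay above day 21, and the log2 fold change was -2.61 ± 0.47 (adjusted p = 0.00545), or -3.25 and -1.98 without day 7 replicate 1 or 2 in turn.

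Peg3 (chr7:6703892-6730431), a zinc finger gene with roles in growth and maternal behaviour, had 125 and 158 TPM at day 7, 60.3, 47.2 and 43.4 TPM in 4F-mini-oocytes at day 21 and 26.4 and 28.1 TPM in 8F-mini-oocytes at day 21. The order was day 7, then 4F at day 21, then 8F at day 21, with no overlap between any of the groups, and the log2 fold change between the days in 4F was -1.48 ± 0.18 (adjusted p = 0.00113). Snrpn, which encodes the spliceosomal protein SmN, had 75.2 and 68.6 TPM at day 7, 32.7, 38.7 and 31.6 TPM in 4F-mini-oocytes at day 21 and 32.8 and 35.9 TPM in 8F-mini-oocytes at day 21. Its day 21 values were alike in 4F and 8F, and it fell by 1.05 on the log2 scale (adjusted p = 0.00177). Snrpn shares exon bases with Snurf, and a read there was split between the genes that overlap.

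Zrsr1 and Airn each fell to 4.05 TPM or less at day 21. Zrsr1, a splicing factor retrogene inside Commd1, had 21.6 and 18.1 TPM at day 7, 2.99, 4.05 and 1.41 TPM in 4F-mini-oocytes at day 21 and 1.97 and 1.89 TPM in 8F-mini-oocytes at day 21 (adjusted p = 0.00409), with 412 exon bases shared with Commd1 on the opposite strand. Airn, the noncoding RNA that silences the paternal Igf2r, had 16.4 and 7.70 TPM at day 7, 4.02, 1.92 and 0.464 TPM in 4F-mini-oocytes at day 21 and 0.909 and 1.32 TPM in 8F-mini-oocytes at day 21 (adjusted p = 0.0323). The groups of both genes did not overlap between day 7 and day 21 in 4F, but the call for Airn was kept in only 7 of 18 other settings, with an adjusted p of up to 0.173 when 1 library was left out (day 7 replicate 1).

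Peg13, a noncoding RNA inside Trappc9, had 4.75 and 6.28 TPM at day 7, 0.0452, 0.487 and 0 TPM in 4F-mini-oocytes at day 21 and 0.145 and 0.0749 TPM in 8F-mini-oocytes at day 21 (adjusted p = 0.00187). Rasgrf1, an exchange factor for Ras, had 5.69 and 4.41 TPM at day 7, 0.733, 0.916 and 0.194 TPM in 4F-mini-oocytes at day 21 and 0.248 and 0.192 TPM in 8F-mini-oocytes at day 21 (adjusted p = 0.00659). Both stood at under 1 TPM in every day 21 library.

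Mest (chr6:30723547-30748465), which encodes an enzyme of the hydrolase fold and is widely used as a marker of maternal methylation, had the largest positive difference among the paternally expressed genes on log2(TPM + 1), a scale that understates genes near 0 such as Ndn. It had 2.68 and 2.23 TPM at day 7, 41.2, 19.9 and 27.8 TPM in 4F-mini-oocytes at day 21 and 26.2 and 29.3 TPM in 8F-mini-oocytes at day 21. All 5 day 21 libraries were above both day 7 libraries, and the log2 fold change was 3.09 ± 0.32 (adjusted p = 0.000602). Mest shares 912 exon bases with Copg2 on the opposite strand, and no strand setting of the counting is stated. Copg2, a coat protein gene, had 24.1 and 15.3 TPM at day 7, 49.2, 36.3 and 62.8 TPM in 4F-mini-oocytes at day 21 and 50.9 and 56.7 TPM in 8F-mini-oocytes at day 21 and also rose in 4F (log2 fold change 1.29 ± 0.28, adjusted p = 0.011, and 0.0774 without day 7 replicate 2). How far the reads of the 2 genes mix was not tested.

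Inpp5f, a phosphoinositide phosphatase gene, had 21.0 and 19.8 TPM at day 7, 46.2, 35.1 and 44.2 TPM in 4F-mini-oocytes at day 21 and 25.6 and 25.8 TPM in 8F-mini-oocytes at day 21. In 4F the days did not overlap and the log2 fold change was 0.99 ± 0.17 (adjusted p = 0.00413). Plagl1, a zinc finger regulator of other imprinted genes, had 4.95 and 6.05 TPM at day 7, 21.1, 8.98 and 14.2 TPM in 4F-mini-oocytes at day 21 and 9.54 and 10.3 TPM in 8F-mini-oocytes at day 21 (log2 fold change 1.21 ± 0.38, adjusted p = 0.0414), a call that was kept in only 5 of 18 other settings, with an adjusted p of up to 0.168 without day 7 replicate 1.

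Ndn, the necdin gene of the Snrpn domain, was listed at 0 in both day 7 libraries, where 3 reads would give 0.207 and 0.156 TPM, and had 0.982, 3.61 and 4.20 TPM in 4F and 3.07 and 2.83 TPM in 8F cells at day 21 (adjusted p = 0.0254 in 4F, kept in 6 of 17 other settings, up to 0.0983 without day 7 replicate 1). The 5 paternally expressed genes that did not pass were Impact, Usp29, Igf2, Kcnq1ot1 and Mcts2. Impact, an inhibitor of the kinase Gcn2, was the highest of them with 23.6 and 29.6 TPM at day 7, 26.4, 17.7 and 40.4 TPM in 4F-mini-oocytes at day 21 and 22.1 and 17.9 TPM in 8F-mini-oocytes at day 21 (adjusted p = 0.99). Its groups overlapped. Igf2, the fetal growth factor gene next to H19, ranged from 0.161 to 6.19 TPM over the 7 libraries, and 3596 of its exon bases are shared with another annotated gene. Usp29 ranged from 3.77 to 6.48 TPM, Mcts2 from 0.261 to 8.38 TPM and Kcnq1ot1 from 0.214 to 2.63 TPM. Kcnq1ot1 was lower in every day 21 library than in both day 7 libraries (adjusted p = 0.0618).

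**Figure D2:**
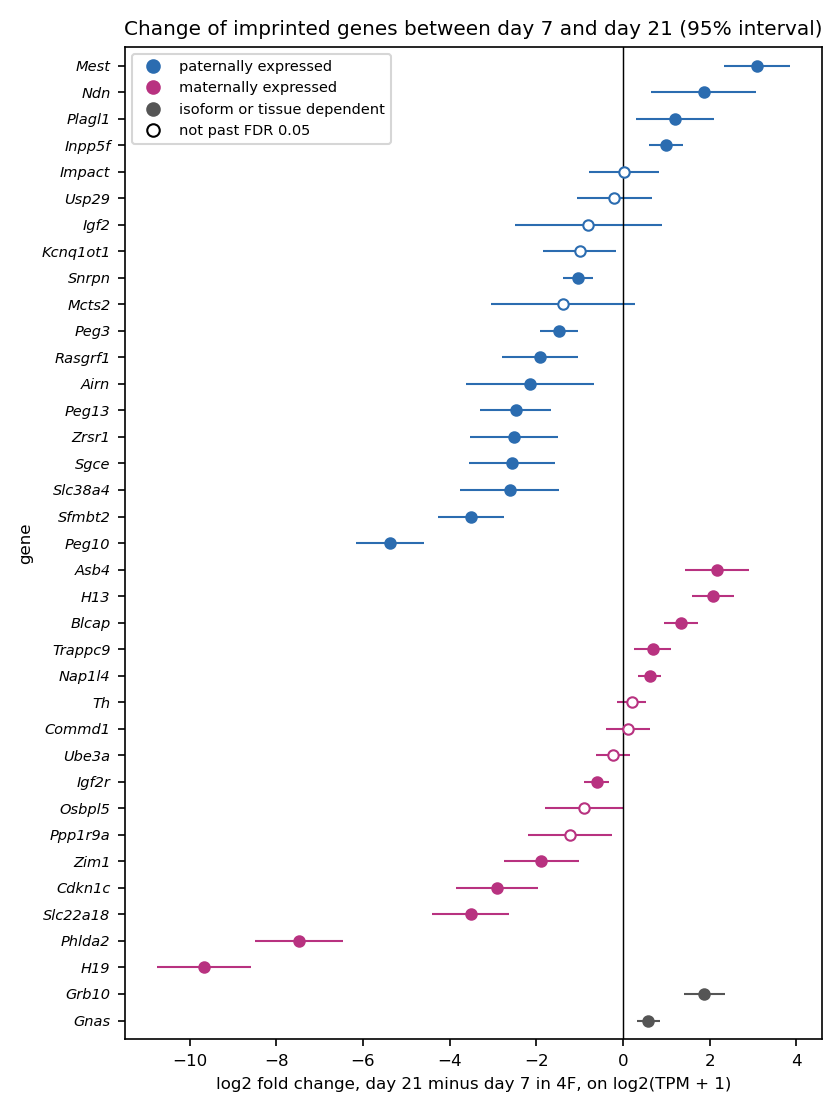
Log2 fold change on log2(TPM + 1) between 4F-mini-oocytes at day 21 and day 7 (horizontal axis, 95% interval as a line) for the 37 imprinted genes tested (vertical axis, coloured by expressed allele), with open points for genes that did not pass the threshold. H19 and Phlda2 lie farthest to the left, at -9.67 and -7.47, and Mest lies farthest to the right, at 3.09.

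Of the 16 maternally expressed genes tested, 6 fell, 5 rose and 5 did not pass, with a median difference of -0.42. The difference between the classes was not tested. Those that fell were H19, Phlda2 and Cdkn1c, which restrain growth of the embryo or the placenta, and Slc22a18, Igf2r and Zim1. Phlda2, Slc22a18 and Zim1 are among those that could enter only through day 7. Those that rose were H13, Blcap, Asb4, Trappc9 and Nap1l4.

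H19 (chr7:142575529-142578143), a noncoding RNA that is abundant in fetal tissue and placenta, had 1039 and 1054 TPM at day 7, 0, 0 and 1.11 TPM in 4F-mini-oocytes at day 21 and 1.33 and 0.288 TPM in 8F-mini-oocytes at day 21. Its mean at day 7 was above that of 99.7% of the genes listed above 0, and it was listed at 0 in 2 of the 3 4F libraries at day 21, where 3 reads would give 0.260 and 0.281 TPM. The log2 fold change was -9.67 ± 0.45 (adjusted p = 5.91e-05), on a scale that depends on the added 1 TPM for values this low.

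Phlda2 (chr7:143501545-143503150), which limits growth of the placenta, had 163 and 265 TPM at day 7, 0, 0.616 and 0 TPM in 4F-mini-oocytes at day 21 and 0.459 and 0.158 TPM in 8F-mini-oocytes at day 21 (log2 fold change -7.47 ± 0.43, adjusted p = 8.46e-05). Its neighbour Cdkn1c (chr7:143458339-143461050), an inhibitor of cyclin-dependent kinases, had 194 and 379 TPM at day 7, 37.3, 49.2 and 23.6 TPM in 4F-mini-oocytes at day 21 and 15.9 and 22.7 TPM in 8F-mini-oocytes at day 21 (log2 fold change -2.91 ± 0.39, adjusted p = 0.00166). Phlda2 was almost undetected at day 21, whereas Cdkn1c remained at 15.9 TPM or more. The next gene of that domain, the transporter-like Slc22a18, had 11.1 and 13.5 TPM at day 7, 0, 0 and 0.561 TPM in 4F-mini-oocytes at day 21 and 0 and 0 TPM in 8F-mini-oocytes at day 21 (adjusted p = 0.00064).

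Igf2r, the receptor that binds IGF2 for degradation, had 127 and 139 TPM at day 7, 94.95, 78.9 and 86.5 TPM in 4F-mini-oocytes at day 21 and 63.7 and 70.0 TPM in 8F-mini-oocytes at day 21. The days did not overlap, and it fell by 0.61 on the log2 scale (adjusted p = 0.00804), a smaller change than those of H19 or Phlda2. Zim1, a zinc finger gene of the Peg3 domain, had 3.06 to 4.13 TPM at day 7 and at most 0.832 TPM at day 21 (adjusted p = 0.00681).

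H13 (chr2:152669461-152708670), the gene of signal peptide peptidase, had 10.9 and 14.3 TPM at day 7, 50.3, 49.4 and 69.9 TPM in 4F-mini-oocytes at day 21 and 78.0 and 74.5 TPM in 8F-mini-oocytes at day 21. Every day 21 library was at least 49.4 TPM and both day 7 libraries were at 14.3 TPM or less, and the log2 fold change in 4F was 2.07 ± 0.20 (adjusted p = 0.000469). Blcap (chr2:157556362-157571274), a small membrane protein gene linked to apoptosis, had 40.2 and 30.7 TPM at day 7, 81.2, 101 and 89.96 TPM in 4F-mini-oocytes at day 21 and 116 and 137 TPM in 8F-mini-oocytes at day 21 (log2 fold change 1.34 ± 0.17, adjusted p = 0.00122). Asb4, an ankyrin repeat gene of the Peg10 domain, had 0.713 and 0.974 TPM at day 7, 7.16, 7.43 and 7.22 TPM in 4F-mini-oocytes at day 21 and 15.8 and 13.7 TPM in 8F-mini-oocytes at day 21 (log2 fold change 2.17 ± 0.31, adjusted p = 0.00206). None of these 3 genes overlapped between the days. H13 and Blcap kept their calls in all 18 other settings, whereas Asb4 could enter the test only through day 21.

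The rises of Nap1l4 and Trappc9 were smaller. Nap1l4 had 182 and 155 TPM at day 7, 264, 241 and 273 TPM in 4F-mini-oocytes at day 21 and 221 and 226 TPM in 8F-mini-oocytes at day 21 (log2 fold change 0.62 ± 0.11, adjusted p = 0.00517, and 0.01 with adjusted p = 0.977 after quantile normalization). Trappc9, a subunit of a vesicle tethering complex, had 21.6 and 18.9 TPM at day 7, 33.1, 28.4 and 38.2 TPM in 4F-mini-oocytes at day 21 and 33.4 and 36.7 TPM in 8F-mini-oocytes at day 21 (log2 fold change 0.68 ± 0.18, adjusted p = 0.0212, kept in 11 of 18 other settings, and 0.0502 and 0.0824 without 4F day 21 replicate 1 or day 7 replicate 2). In both genes the days did not overlap.

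The 5 maternally expressed genes that did not pass were Th, Ube3a, Commd1, Ppp1r9a and Osbpl5. Th, which encodes tyrosine hydroxylase, had 55.9 and 50.1 TPM at day 7, 67.0, 55.7 and 60.3 TPM in 4F-mini-oocytes at day 21 and 36.9 and 32.7 TPM in 8F-mini-oocytes at day 21 (adjusted p = 0.3 between the days in 4F). The paper reports Th transcripts in mini-oocytes that start from a retrotransposon active in oocytes. TPM does not separate these from other Th transcripts. Ube3a, the ubiquitin ligase gene at the far end of the Snrpn domain, had 35.5 and 32.4 TPM at day 7, 32.9, 26.4 and 26.9 TPM in 4F-mini-oocytes at day 21 and 19.6 and 18.98 TPM in 8F-mini-oocytes at day 21 (adjusted p = 0.289). For both of these genes the days overlapped in 4F and the 8F values were the lowest.

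Ppp1r9a, which encodes neurabin, had 17.9 and 8.62 TPM at day 7, 5.41, 4.10 and 4.82 TPM in 4F-mini-oocytes at day 21 and 3.40 and 2.37 TPM in 8F-mini-oocytes at day 21 (adjusted p = 0.0509, just outside the threshold). Its 2 day 7 values differed widely. Commd1, a regulator of copper balance, had 26.6 and 28.2 TPM at day 7, 24.8, 27.7 and 38.4 TPM in 4F-mini-oocytes at day 21 and 24.7 and 21.7 TPM in 8F-mini-oocytes at day 21 (adjusted p = 0.699), and Osbpl5, a lipid transfer gene, ranged from 2.67 to 8.35 TPM (adjusted p = 0.103).

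Both tested genes of the isoform or tissue dependent class rose in TPM between the days in 4F. Grb10 (chr11:11930508-12038683), an adaptor that dampens insulin and growth factor signalling and is read from the paternal copy in neurons but the maternal copy elsewhere, had 14.3 and 19.6 TPM at day 7, 77.1, 56.0 and 59.9 TPM in 4F-mini-oocytes at day 21 and 90.1 and 81.9 TPM in 8F-mini-oocytes at day 21. Day 21 was above day 7 in every library (log2 fold change 1.87 ± 0.20, adjusted p = 0.00065). Gnas, which encodes the stimulatory G protein alpha subunit and further isoforms from other promoters, had 60.2 and 67.7 TPM at day 7, 91.2, 102 and 96.1 TPM in 4F-mini-oocytes at day 21 and 61.2 and 59.9 TPM in 8F-mini-oocytes at day 21 (log2 fold change 0.58 ± 0.11 in 4F, adjusted p = 0.0065), but the difference was -0.03 with adjusted p = 0.886 after quantile normalization. Gnas shares exon bases with the antisense gene Nespas.

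**Figure D3:**
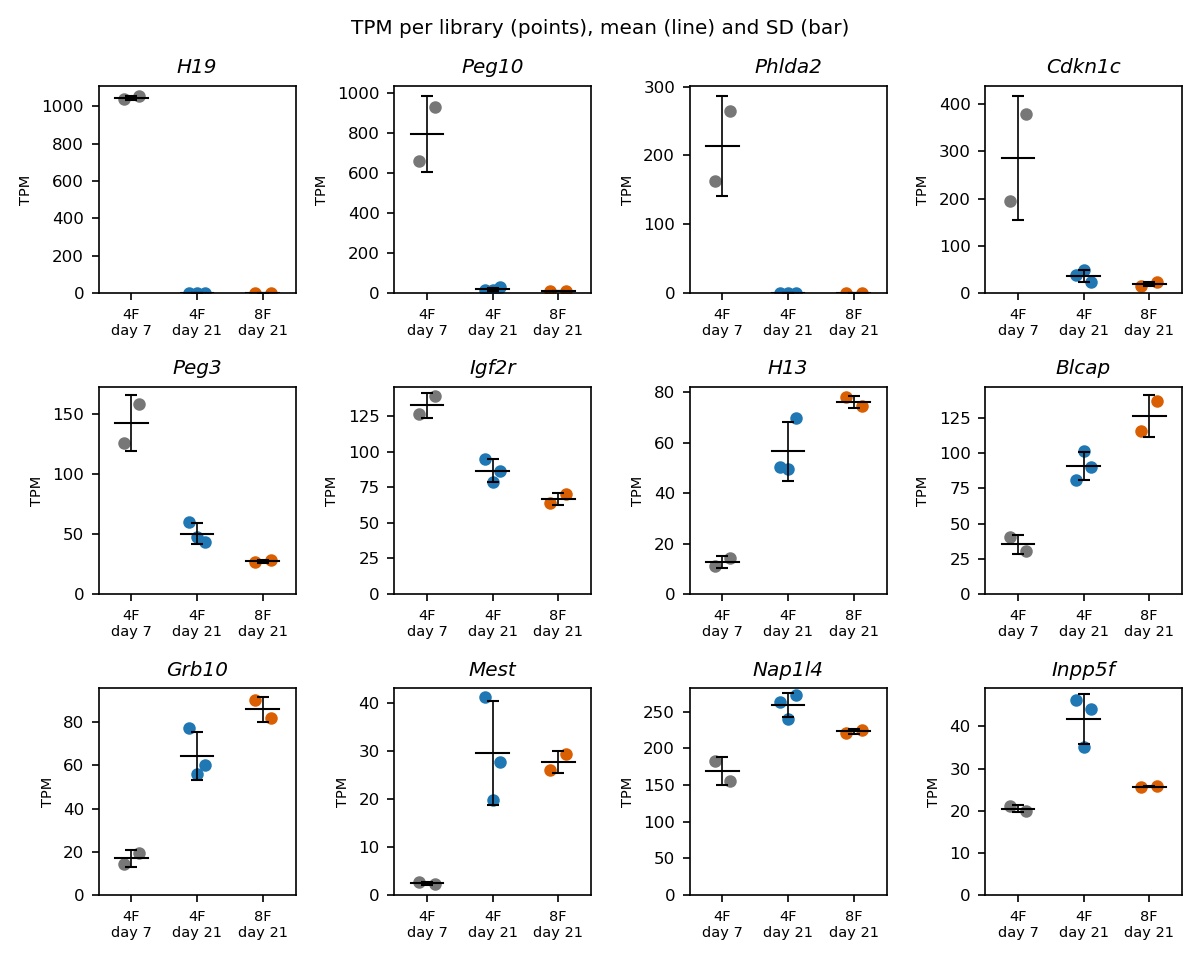
TPM (vertical axes, each from 0) of 12 imprinted genes in 4F at day 7, 4F at day 21 and 8F at day 21 (horizontal axes), with a point per library, a line at the mean and bars of 1 SD. H19, Peg10, Phlda2 and Cdkn1c are highest at day 7, Peg3 and Igf2r step down over the groups, and H13, Blcap, Grb10, Mest and Nap1l4 are above both day 7 libraries in all 5 day 21 libraries.

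Neighbours under 1 control region were called in the same direction at some loci and in opposite directions at others. In the domain of Kcnq1ot1 on chromosome 7, Phlda2, Cdkn1c and Slc22a18 fell, Nap1l4 rose, and Kcnq1ot1, Osbpl5 and Th did not pass. In the Peg10 domain on chromosome 6, Peg10 and Sgce fell, Asb4 rose and Ppp1r9a did not pass. In the Snrpn domain, Snrpn fell, Ndn rose and Ube3a did not pass, while Magel2 and Mkrn3 were at under 1 TPM in all libraries. In the Peg3 domain, Peg3 and Zim1 fell and Usp29 did not pass, Igf2r and Airn both fell, and H19 fell while Igf2 did not pass.

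At 5 loci a paternally expressed gene lies inside or partly inside a maternally expressed one, so levels of both could be set side by side within a library. The difference was taken as log2(TPM + 1) of the maternally expressed host minus that of its partner. For H13 and Mcts2, a retrogene that encodes a translation factor, it was 0.35 and 0.98 at day 7, 3.36, 3.19 and 5.81 in 4F and 4.30 and 4.50 in 8F at day 21. For Commd1 and Zrsr1 it was 0.29 and 0.61, 2.69, 2.51 and 4.03 and 3.11 and 2.97 in the same order.

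For Trappc9 and Peg13 the difference was 1.97 and 1.45 at day 7, 5.03, 4.31 and 5.29 in 4F and 4.91 and 5.13 in 8F. For Igf2r and Airn it was 2.87 and 4.01, 4.26, 4.78 and 5.90 and 5.08 and 4.94, and for Blcap and Nnat, a proteolipid gene of developing brain that had at most 3.62 TPM, it was 3.16 and 4.99, 6.36, 6.68 and 5.73 and 6.87 and 6.97. At each of the 5 loci, every day 21 library lay above both day 7 libraries. Of all single genes tested, 56.7% did not overlap between the days in 4F and 72.3% between 8F at day 21 and 4F at day 7. No such share was taken over other pairs of genes. The differences also restate calls given above for single genes, such as H13, Zrsr1 and Peg13. Nnat was not tested and had 3.62 and 0 TPM at day 7. The parts of host and partner differed: H13, Blcap and Trappc9 rose, Commd1 did not pass, and Igf2r and Airn fell by 0.61 and 2.15 on the log2 scale. Of the 5 pairs, Commd1 and Zrsr1 alone share exon bases in the annotation, 412 on opposite strands, where reads cannot be assigned without strand.

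**Figure D4:**
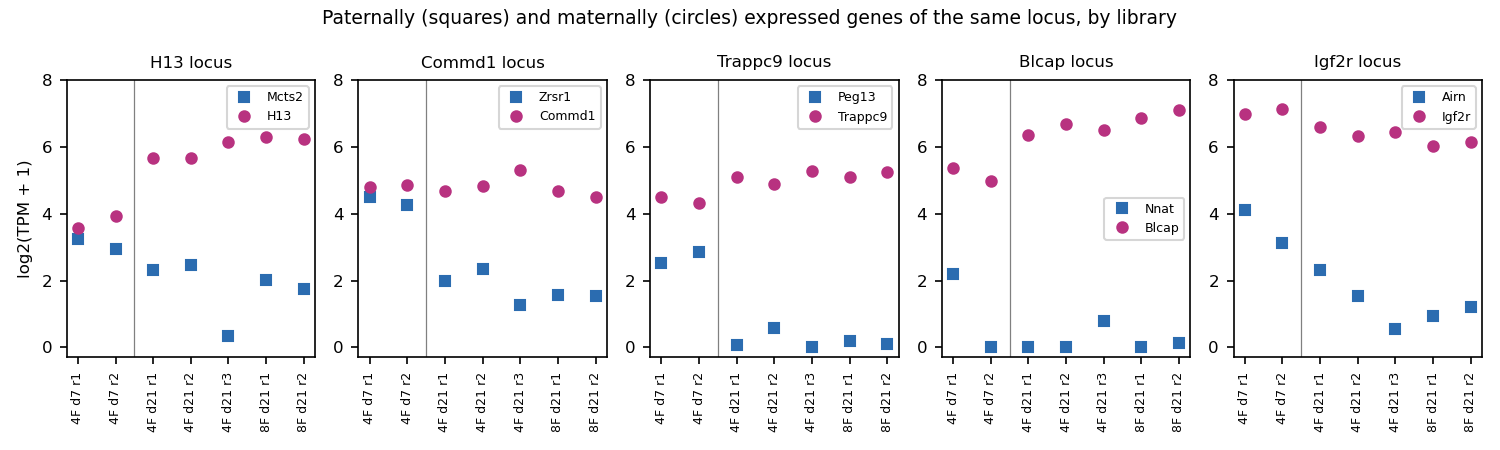
log2(TPM + 1) (vertical axes) of the paternally expressed gene (squares) and the maternally expressed gene (circles) at 5 loci, in each of the 7 libraries (horizontal axes, with a line between day 7 and day 21). The gap between circle and square is wider in every day 21 library than in both day 7 libraries at all 5 loci. Of single genes, 56.7% did not overlap between the days in 4F, and no share was taken over other pairs of genes.

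Markers of other cell types were read beside these changes. The 9 trophoblast markers summed to between 1159 and 1643 TPM at day 7, to between 54.0 and 148 TPM in 4F and to between 38.6 and 46.8 TPM in 8F at day 21. Of 7 tested, 5 fell between the days in 4F (Krt8, Krt18, Krt7, Gata3 and Hand1), beside 15.3% lower over all genes. Krt7, Gata3 and Hand1 reached 1 TPM in day 7 libraries only. They could therefore enter the test only through the group in which they were high. The defining factors Cdx2 and Elf5 were listed at 0 in both day 7 libraries. Krt8 and Krt18, keratins of simple epithelia, made up most of the day 7 sum, with means of 761 and 547 TPM. Tfap2c and Eomes did not pass, with means of 19.1 and 1.65 TPM at day 7 and 13.3 and 1.26 TPM in 4F at day 21. Of the 37 imprinted genes tested, 16 fell as these 5 markers did, among them Peg10, H19, Phlda2, Cdkn1c, Sfmbt2 and Slc38a4. The other way went 11 that rose, among them Mest, Grb10 and Asb4. The part of the trophoblast markers in the result was not tested.

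All 12 oocyte markers had a mean of at least 1 TPM in every group, and their sum was between 18628 and 21829 TPM at day 7 and between 52758 and 57285 TPM in 4F at day 21. Nobox and Figla are among the 12 but were forced in all of these cells. Per the paper, their RNA includes the transgenes, so their presence does not bear on cell type. The 10 pluripotency markers summed to between 87.3 and 98.0 TPM at day 7, between 254 and 364 TPM in 4F and between 146 and 187 TPM in 8F at day 21. Of 7 tested, Pou5f1, Esrrb and Tbx3 rose between the days in 4F and Zfp42 fell, beside 25.3% higher and 15.3% lower over all genes. Pou5f1, which oocytes also express, had the highest level of them, with a mean of 27.3 TPM at day 7 and 196 TPM in 4F at day 21, and Nanog was at most 0.94 TPM in any library. The 8 granulosa markers summed to at most 15.4 TPM, the 9 markers of mesoderm, endoderm and stroma to between 4.74 and 97.2 TPM, and the 6 neural markers to between 132 and 368 TPM, the last 2 sums being highest in 8F cells. Of the former, Gata4 had means of 2.32 TPM at day 7, 40.5 TPM in 4F and 91.6 TPM in 8F at day 21, and of the latter, Tubb3 had 6.21, 208 and 299 TPM while Nes had 135, 46.3 and 46.5 TPM in the same order. The part of these markers in the results was not tested.

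To ask how imprinted genes differed in cells with 4 more factors, 8F-mini-oocytes were compared with 4F-mini-oocytes at day 21. The number of factors and the cell line cannot be told apart here. Of 37 imprinted genes tested, 3 were lower in 8F (Gnas, Peg3 and Th) and 34 did not pass. Over all genes tested 8.37% passed, with 4.41% lower and 3.95% higher. The median difference was -0.21 over the imprinted genes and 0.06 over all genes on the log2 scale.

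Gnas had 91.2, 102 and 96.1 TPM in 4F and 61.2 and 59.9 TPM in 8F, a log2 fold change of -0.66 ± 0.11 (adjusted p = 0.0202). Its 8F values lay near those of the 4F libraries at day 7, 60.2 and 67.7 TPM. Peg3 had 60.3, 47.2 and 43.4 TPM in 4F and 26.4 and 28.1 TPM in 8F (log2 fold change -0.85 ± 0.18, adjusted p = 0.0384). Th had 67.0, 55.7 and 60.3 TPM in 4F and 36.9 and 32.7 TPM in 8F (log2 fold change -0.79 ± 0.14, adjusted p = 0.0224). In none of these genes did the groups overlap. With 1 of the 3 4F libraries of day 21 left out, 0 or 1 imprinted gene passed, and the adjusted p was at most 0.0559 for Gnas, 0.0794 for Peg3 and 0.0595 for Th. Without either 8F library 0 passed, with the spread of the remaining one taken from the other groups, and p was then at most 0.13, 0.283 and 0.156 in the same order. With eBayes without a trend, none of the 3 passed and Asb4 passed as higher.

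Among the 34 others, 4 were higher and 9 lower in 8F without overlap between the groups, beside 43.8% of all genes tested that did not overlap. Asb4 had 7.16, 7.43 and 7.22 TPM in 4F and 15.8 and 13.7 TPM in 8F (adjusted p = 0.136). Inpp5f had 46.2, 35.1 and 44.2 TPM in 4F and 25.6 and 25.8 TPM in 8F (adjusted p = 0.0612). The adjusted p was 0.157 for Blcap, 0.265 for H13 and 0.274 for Grb10, all with higher values in 8F. For Mest the interval of the difference was -0.80 to 0.73 on the log2 scale and for Snrpn -0.34 to 0.35, so differences within these bounds cannot be told from none with these libraries.

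The labels give no batch, so no value within a batch could be had for this comparison. The deposited values have up to 9 decimals in 4F columns and up to 16 in 8F columns, and whether the tables were made separately is not given in the sources used here.

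**Figure D5:**
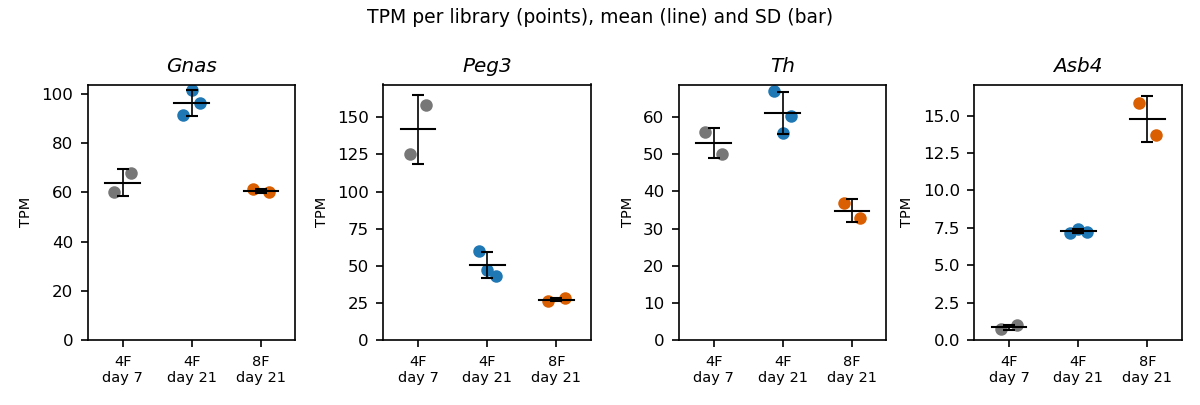
TPM (vertical axes, each from 0) of Gnas, Peg3, Th and Asb4 in 4F at day 7, 4F at day 21 and 8F at day 21 (horizontal axes), with a point per library, a line at the mean and bars of 1 SD. The 8F points lie below all 4F day 21 points for Gnas, Peg3 and Th, and above them for Asb4, whose difference did not pass the threshold.

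Compared with 4F-mini-oocytes at day 7, 8F-mini-oocytes at day 21 had 19 imprinted genes lower and 8 higher of 37 tested. Over all genes 37.2% passed, 24.2% higher and 13.0% lower. The groups did not overlap for 24 imprinted genes lower and 10 higher, beside 72.3% of all genes. As in 4F, 5 of the lower genes reached 1 TPM in day 7 libraries only, and Asb4 and Ndn in day 21 libraries only. Sgce, also lower, again needed day 7 to enter the test. The higher genes numbered 5 without day 7 replicate 2 or either 8F library, and the lower ones 13 without either 8F library, where the spread of the remaining one comes from the other groups. Of the 27 calls, 9 were lost in at least 1 such setting. This comparison shares the day 7 libraries with the one above and differs from it also in the number of factors and the cell line. It therefore gives no independent support, and its values are set beside those of 4F. Of paternally expressed genes 10 were lower and 2 higher of 19, and of maternally expressed genes 9 were lower and 5 higher of 16.

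Peg10 had a log2 fold change of -6.09 ± 0.36 (adjusted p = 0.00015) in 8F, beside -5.38 in 4F. H19 had -9.24 ± 0.50 (adjusted p = 0.000134), beside -9.67. Grb10 had 2.29 ± 0.22 (adjusted p = 0.000603), beside 1.87, and H13 had 2.52 ± 0.22 (adjusted p = 0.000466), beside 2.07. The differences between these pairs of values are those of 8F against 4F at day 21, none of which passed for these 4 genes.

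Ube3a, Ppp1r9a and Th passed as lower in 8F than at day 7 (adjusted p = 0.015, 0.0199 and 0.0225) and did not pass in 4F. Without an 8F library the adjusted p was at most 0.0762, 0.124 and 0.116. Inpp5f, Plagl1 and Gnas passed as higher in 4F and had adjusted p = 0.223, 0.202 and 0.666 in 8F against day 7. Nap1l4 passed as higher (log2 fold change 0.41 ± 0.12, adjusted p = 0.0389), but after quantile normalization its difference was -0.13 with adjusted p = 0.454, and without 8F replicate 2 the adjusted p was 0.156.

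The 12 imprinted genes that were not tested stayed low in all libraries. They were the paternally expressed Dlk1, Rtl1, Magel2, Mkrn3, Nnat and Nap1l5, the maternally expressed Meg3, Rian, Mirg, Calcr and Qpct, and Ddc. Rtl1 and Ddc were listed at 0 throughout, and the highest value of the rest was 3.62 TPM, for Nnat in 1 day 7 library. All 5 genes of the set from the Dlk1 and Meg3 domain on chromosome 12, which marks developmentally competent stem cells when it is active, were under 1 TPM in every library. Meg3, its noncoding RNA, had 0.0775 and 0 TPM at day 7, 0.602, 0.764 and 0.54 TPM in 4F-mini-oocytes at day 21 and 0.237 and 0.372 TPM in 8F-mini-oocytes at day 21. At the other end, 17 genes had a mean of at least 5 TPM in all groups.

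Genes that set, keep or erase imprints were read as a list of 30, of which 29 were tested. Between the days in 4F, 17 rose and 4 fell, beside 25.3% higher and 15.3% lower over all genes. Among those that rose, Dnmt3l reached 1 TPM in day 21 libraries only. It could therefore enter the test only through the groups in which it was high. Nlrp2 reached 1 TPM in only 1 day 7 library, so it too needed the day 21 libraries to enter. Dnmt3l, the cofactor of de novo methylation in oocytes, had 0 and 0.705 TPM at day 7, 12.5, 11.1 and 13.7 TPM in 4F-mini-oocytes at day 21 and 17.9 and 17.5 TPM in 8F-mini-oocytes at day 21 (log2 fold change 3.36 ± 0.35, adjusted p = 0.000596), while Dnmt3a, its catalytic partner, had 46.0 and 40.8 TPM at day 7, 38.7, 38.0 and 37.5 TPM in 4F-mini-oocytes at day 21 and 24.9 and 32.0 TPM in 8F-mini-oocytes at day 21 (adjusted p = 0.394). Dnmt3l was near the limit of detection at day 7 and present in all day 21 libraries, whereas Dnmt3a was a little lower in all 5 day 21 libraries than in both day 7 libraries and passed only for 8F against day 7 (adjusted p = 0.0326, or 0.132 without 8F replicate 1).

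Dnmt1, the maintenance methyltransferase, had 346 and 527 TPM at day 7, 5905, 4894 and 5322 TPM in 4F-mini-oocytes at day 21 and 2947 and 3393 TPM in 8F-mini-oocytes at day 21 (log2 fold change 3.65 ± 0.20, adjusted p = 8.21e-05). Its partner Uhrf1 had a log2 fold change of 1.29 ± 0.12 (adjusted p = 0.000369). Zfp57, which binds methylated imprint control regions, had 383 and 351 TPM at day 7, 1391, 1389 and 1432 TPM in 4F-mini-oocytes at day 21 and 1287 and 1252 TPM in 8F-mini-oocytes at day 21 (log2 fold change 1.94 ± 0.10, adjusted p = 6.13e-05), and its cofactor Trim28 had a log2 fold change of 0.80 ± 0.12 (adjusted p = 0.00231).

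Nlrp2, a maternal effect gene linked to imprinting, and Tet3, an oxidase of methylated cytosine in the egg, had log2 fold changes of 5.77 ± 0.68 and 3.35 ± 0.24 (adjusted p = 0.000987 and 0.000171). The day 7 values of Nlrp2 were far apart, 0.944 and 11.5 TPM, and its log2 fold change was 4.43 without replicate 1 and 7.11 without replicate 2. Dppa3, which per the paper guards oocytes against too much DNA methylation, was at 6292 to 7804 TPM in every library (adjusted p = 0.982). The 4 that fell were Tdg, Zfp42, Ehmt2 and Zfp445, and without day 7 replicate 1 the adjusted p was 0.0647 for Tdg, 0.121 for Ehmt2 and 0.0745 for Zfp445.

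Kdm1b, the histone demethylase needed to set many maternal imprints, had 855 and 878 TPM at day 7, 1557, 1356 and 1538 TPM in 4F-mini-oocytes at day 21 and 799 and 878 TPM in 8F-mini-oocytes at day 21. It rose between the days in 4F (log2 fold change 0.77 ± 0.11, adjusted p = 0.0023) and was lower in 8F than in 4F at day 21 (-0.82 ± 0.11, adjusted p = 0.0118). The 8F values lay near those of day 7. Of the 29 genes, 5 were lower in 8F than in 4F and 0 higher, beside 4.41% and 3.95% of all genes, among them Atrx (-0.93, adjusted p = 0.0129) and Nlrp5 (-0.84, adjusted p = 0.0488). Without 8F replicate 1 the adjusted p was 0.13 for Kdm1b, 0.118 for Atrx and 0.337 for Nlrp5.

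A further list of 43 imprinted genes outside the set, 31 of them tested, had 9 that rose and 8 that fell between the days in 4F, beside 25.3% and 15.3% of all genes. Kcnq1 and Cobl, which both rose, reached 1 TPM in day 21 libraries only. They could therefore enter the test only through the groups in which they were high. Kcnq1, the potassium channel gene that overlaps Kcnq1ot1 in antisense, had 0.591 and 0.0468 TPM at day 7, 31.4, 24.9 and 35.4 TPM in 4F-mini-oocytes at day 21 and 27.1 and 26.1 TPM in 8F-mini-oocytes at day 21 (log2 fold change 4.60 ± 0.29, adjusted p = 0.000113). Its level went from under 1 TPM to 24.9 TPM or more. Kcnq1ot1 had 2.63 and 1.26 TPM at day 7 and did not pass between the days in 4F (adjusted p = 0.0618). At day 21 Kcnq1ot1 had 0.661, 0.461 and 0.214 TPM in 4F-mini-oocytes and 0.424 and 0.289 TPM in 8F-mini-oocytes. Kcnq1ot1 shares 121 exon bases with Kcnq1 on the opposite strand, and how far reads of the pair mix was not tested. Cobl, an actin nucleator next to Grb10, had a log2 fold change of 3.04 ± 0.33 (adjusted p = 0.000674) and Zim2, of the Peg3 domain, one of -3.00 ± 0.78 (adjusted p = 0.0216, or 0.139 without day 7 replicate 1). Between 8F and 4F, 1 gene of this list passed, Jade1, which was lower in 8F (-1.32, adjusted p = 0.0299, or 0.206 without 8F replicate 2).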

How the data were processed

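RNA was measured in 7 libraries made with a SMART-seq Stranded kit. Per the paper's methods, the authors used Trim Galore for trimming, HISAT2 for alignment to mm10, bedtools to take out ribosomal RNA and featureCounts on GENCODE vM25 genes for reads with a unique position (a read on several genes was split between them, and no strand setting is stated), and deposited TPM. Unique mapping lowers genes with near-identical copies, such as retrogenes. Sequencer and read length differed between libraries and are not assigned to them. The authors' edgeR test needs counts, which were not used here, so log2(TPM + 1) was fitted with limma 3.58.1 in R 4.3.3 (3 groups, trended eBayes, two-sided, Benjamini-Hochberg, FDR 0.05), on genes that reached 1 TPM in 2 or more libraries. The fit was tested on simulated data.

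Since 1 read gives a fixed step in TPM for a given exon length (GENCODE vM21), the reads per library could be recovered, and between 77.7% and 83.8% of values came out whole within 0.02 reads. Limits of 3 reads cover counting error only. Libraries of a group shared no identical column (Pearson r across genes, which are not independent, between 0.905 and 0.983). Coordinates are those of mm10 in GENCODE vM21, in which all 49 symbols were found.

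The imprinted genes and all lists were chosen with earlier results of these data known. By rule, every imprinted gene is named. Values per library are given for those past the threshold in a comparison with a mean of at least 5 TPM in a group and for the 5 highest of each class, and for Commd1, Ndn and Meg3, which were added after their values were seen. From the other lists the rule names the 3 largest changes past the threshold in each comparison with a mean of at least 5 TPM in a group, and Dnmt1, Dnmt3a, Dnmt3l, Uhrf1, Zfp57, Trim28, Dppa3 and Kdm1b. Copg2, the named markers and the genes of those lists that fell or were lower and are given by name only were added likewise. Other settings are listed in the closing section.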

Additional observations from a re-analysis of the deposited data

How the results depend on the processing

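The fit was repeated with voom on recovered reads, with array weights, without the eBayes trend, with quantile or median-of-ratios scaling, with 0.1 or 5 TPM added, with no filter or one at 5 TPM, on the compared groups alone, with the replicate number as a block, and without each library. Between the days in 4F and between 8F at day 21 and 4F at day 7, the number of imprinted genes past the threshold stayed within 1.5 times in all of these, though in 8F against day 7 the higher ones went from 8 to 5 without day 7 replicate 2 or either 8F library. Between 8F and 4F at day 21, 3 imprinted genes passed, all lower, against 1 without trend (Asb4, higher), 5 with array weights (all lower), 7 with voom (4 higher, 3 lower) and 0 to 3 when a library was left out (1 without 4F replicate 1 or 2, 0 without 4F replicate 3 or either 8F library of day 21). Over all genes, the 1822 that passed there became 994 without trend, 3572 with array weights and 306 to 2221 when a library was left out, and the 8103 of 8F at day 21 against day 7 became 4089 to 8281, the lowest without 8F replicate 2. With the replicate number as a block, 0 imprinted genes and 164 genes in all passed between 8F and 4F. Same-numbered libraries did not deviate together (r between -0.04 and 0.01), so the numbers are not taken as a pairing. Direction reversed for Gnas between the days in 4F (-0.026, adjusted p = 0.886) and for Nap1l4 in 8F against day 7 (-0.13, adjusted p = 0.454), both under quantile normalization in limma; the cause was not tested. Rescaling moved the split of calls over all genes: 62.3% were higher between the days in 4F, against 48.6% with median of ratios, 52.0% with quantiles and 37.3% with voom, 65.1% in 8F against day 7, against 51.5%, 51.1% and 47.3%, and 47.3% in 8F against 4F, against 62.8% with voom. Depth limits genes whose level is near that of 3 reads, such as H19 and Ndn in the group where each is low.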

Other observations

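Genes that set, keep or erase imprints were also compared between 8F cells at day 21 and 4F cells at day 7, which share their libraries with the comparisons above. Of 29 tested, 12 were higher and 7 lower, beside 24.2% and 13.0% of all genes. Hells, a chromatin remodeller, and Tet2, an oxidase of methylated cytosine, were among the lower ones and had adjusted p = 0.031 and 0.00691 in limma with Benjamini-Hochberg adjustment, or 0.14 and 0.0528 without 8F replicate 2. Of the 31 further imprinted genes tested, 8 were higher and 8 lower. Hells and Tet2 were named after their values were seen.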
